A study of Mus musculus with 24 samples.

Results

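Oxidative phosphorylation (OXPHOS) subunit genes were followed through 24 RNA-seq libraries of 3T3 MEFs, a mouse embryonic fibroblast line. Members were the protein-coding genes whose symbols name a subunit of the respiratory chain or of ATP synthase (Nduf followed by a, b, c, s or v and a number, Sdha to Sdhd, Uqcr, Cox4 to Cox8, Atp5, and mt-Nd, mt-Co, mt-Atp and mt-Cytb). Symbol and gene type were the only criteria of this rule, which used no expression value. The members were, however, chosen with earlier results of these data known. This gave 98 of the 55471 genes in the count tables, 85 encoded in the nucleus and 13 in the mitochondrial genome. Of the nuclear members 37 belonged to complex I, 4 to complex II, 8 to complex III, 18 to complex IV and 18 to complex V, and of the mitochondrial members 7 belonged to complex I, 1 to complex III, 3 to complex IV and 2 to complex V. A further 12 matching symbols were not protein-coding and were left out.

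The cells were wild-type (WT) MEFs, Lkb1-/- MEFs (KO in the labels) and 2 lines lacking both Lkb1 and Crtc2 (DKO_A1 and DKO_A2, called clone A1 and clone A2 here), each left untreated (ctrl) or given IL-1β for 6 h, with 3 libraries in each of the 8 groups. Both clones were single-cell CRISPR clones raised from the Lkb1-/- MEFs with guides against the first exon of Crtc2, so each stands for 1 cell that was expanded, and the loss of Lkb1 is common to the KO and both clones. LKB1 is a kinase that activates the salt-inducible kinases, which keep the CREB coactivator CRTC2 out of the nucleus. The labels do not say whether the libraries of a group came from separate cultures, so the p-values measure the spread between these libraries, which may be technical.

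OXPHOS complexes pass electrons from NADH (complex I) and succinate (complex II) through complex III and cytochrome c to complex IV, where oxygen is reduced, and complex V uses the proton gradient built by complexes I, III and IV to make ATP. Most subunits are encoded in the nucleus, translated in the cytosol and imported, while a small set of hydrophobic core subunits is encoded by mitochondrial DNA and transcribed as long polycistronic RNAs, so that assembly needs the products of both genomes. Fibroblast lines express the ubiquitous isoforms of the complex IV subunits and little of the isoforms known from heart, skeletal muscle, lung or testis.

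Gene counts ranged from 38842901 to 48594394 per library. Levels are given as CPM, a gene's counts scaled by edgeR to a common library size after TMM normalization, a fold change is a log2 difference of the fitted group means from edgeR's quasi-likelihood test with its standard error (SE), and a member was called at a Benjamini-Hochberg false discovery rate (FDR) under 0.05 over all 17522 genes tested. As a check of the labels, Stk11, which encodes LKB1, was at 84.6 to 87.9 CPM in untreated WT libraries and at 16.3 to 18.7 CPM in untreated Lkb1-/- libraries (log2 fold change -2.31, SE 0.0701, FDR = 1.1e-16). Crtc2 was at 79.1 to 82.3 CPM in Lkb1-/- MEFs, 41.1 to 45.2 CPM in clone A1 and 48.9 to 50.6 CPM in clone A2, with log2 fold changes of -0.92 (SE 0.0666, FDR = 2.2e-09) and -0.70 (SE 0.0662, FDR = 9.9e-08) in the clones against Lkb1-/- MEFs. In untreated WT it was at 56.5 to 61.2 CPM. Against WT the log2 fold changes were 0.47 in Lkb1-/- MEFs, -0.45 in clone A1 and -0.23 in clone A2. Of the fibroblast markers Vim lay between 1834 and 3319 CPM and Col1a1 between 932.3 and 2951 CPM, while Thy1 stayed at or below 0.0623 CPM and Pdgfra was as low as 3.71 CPM in WT and as high as 604.9 CPM elsewhere. Fap stayed at or below 0.209 CPM and S100a4 lay between 0.390 and 2.60 CPM. Col3a1 lay between 264.1 and 812.3 CPM and Pdgfrb between 32.5 and 147 CPM. Col1a2 was at 595.1 to 912.3 CPM in untreated WT and at 45 to 73.4 CPM in untreated Lkb1-/- MEFs. Of 25 markers of other cell types, including the immune gene Ptprc and the endothelial gene Cdh5 (at most 0.025 CPM), 20 stayed at or below 1 CPM in every library, and the other 5 were Cd68, Kdr, Acta1, Tnnt2 and Tubb3. Among these the neuronal gene Tubb3 was at 0.0261 to 0.0691 CPM in untreated WT and 7.80 to 11.05 CPM in untreated Lkb1-/- MEFs, Kdr was at 0.322 to 0.470 and 2.38 to 2.74 CPM, and the muscle genes Acta1 and Tnnt2 were lower in Lkb1-/- MEFs, at means of 0.132 and 0.530 CPM against 2.20 and 2.57 CPM. The 25 together summed to 8.80 to 9.30 CPM in untreated WT, 15.01 to 17.57 in Lkb1-/- MEFs, 10.9 to 12.5 in clone A1 and 13.4 to 15.2 in clone A2, and their part in the results was not tested.

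Among the 13 mitochondrial members, 6 neighbors were all but missing from the count tables, and 5 of them have near-identical copies in the nuclear genome. Over the 24 libraries mt-Co2, mt-Atp8, mt-Atp6, mt-Co3, mt-Nd3 and mt-Nd4l had between 0 and 7 counts each, whereas mt-Nd1 upstream of them had a median of 207917 counts and mt-Cytb downstream had 106967.5. The annotation holds a copy of this stretch on chromosome 1 as a row of unprocessed pseudogenes, and over their aligned bases Gm28661 was identical to mt-Co2 at 681 of 681 bases, Gm10925 to mt-Atp6 at 678 of 678, Gm28437 to mt-Co3 at 783 of 783, Gm28438 to mt-Nd3 at 344 of 345 and Gm10222 to mt-Nd4l at 294 of 294. The shared stretch is shown here by the start of mt-Co2 (chrM:7013-7072, plus strand, GRCm38, exon of a protein-coding gene) beside the start of Gm28661 (the copy spans chr1:24614885-24615565), and its edge by a piece of mt-Co1 (chrM:6381-6440) beside Gm29216 (chr1:24615706-24616197). Capitals mark bases that differ within a pair, and the sequences were read from the GENCODE M21 transcripts.
mt-Co2: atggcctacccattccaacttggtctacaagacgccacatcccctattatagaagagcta
Gm28661: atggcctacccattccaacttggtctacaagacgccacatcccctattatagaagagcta
mt-Co1: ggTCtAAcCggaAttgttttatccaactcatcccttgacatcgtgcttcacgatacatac
Gm29216: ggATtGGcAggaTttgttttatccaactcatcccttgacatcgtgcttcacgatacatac
The mt-Co2 pair was the same at 60 of 60 bases and the mt-Co1 pair at 54 of 60, with every difference in the opening bases of the stretch.

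A read of 50 bases placed anywhere in mt-Co2 would match another annotated transcript in 100% of positions, in mt-Co3 in 99.9%, in mt-Atp6 in 99.5%, in mt-Nd4l in 98.8% and in mt-Nd3 in 98.0%. For mt-Nd4 the share was 62.2% and for mt-Co1 51.1%, for mt-Nd2 8.19% and for mt-Nd5 7.61%, and it was 0% for mt-Nd1, mt-Nd6 and mt-Cytb. The STAR gene counts leave out pairs that align to more than 1 place, which were 7.69% to 9.06% of the pairs of a library, and the part this has in the low counts was not tested. mt-Atp8 lies between mt-Co2 and mt-Atp6 and has no annotated copy, so its share was 0% although it had at most 2 counts per library. The copies themselves took up few reads, with medians from 17.5 counts for Gm10222 to 1054.5 for Gm10925. None of the 6 genes passed the filter on low counts, and no statement on their RNA level can be made from these tables.

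**Figure D1:**
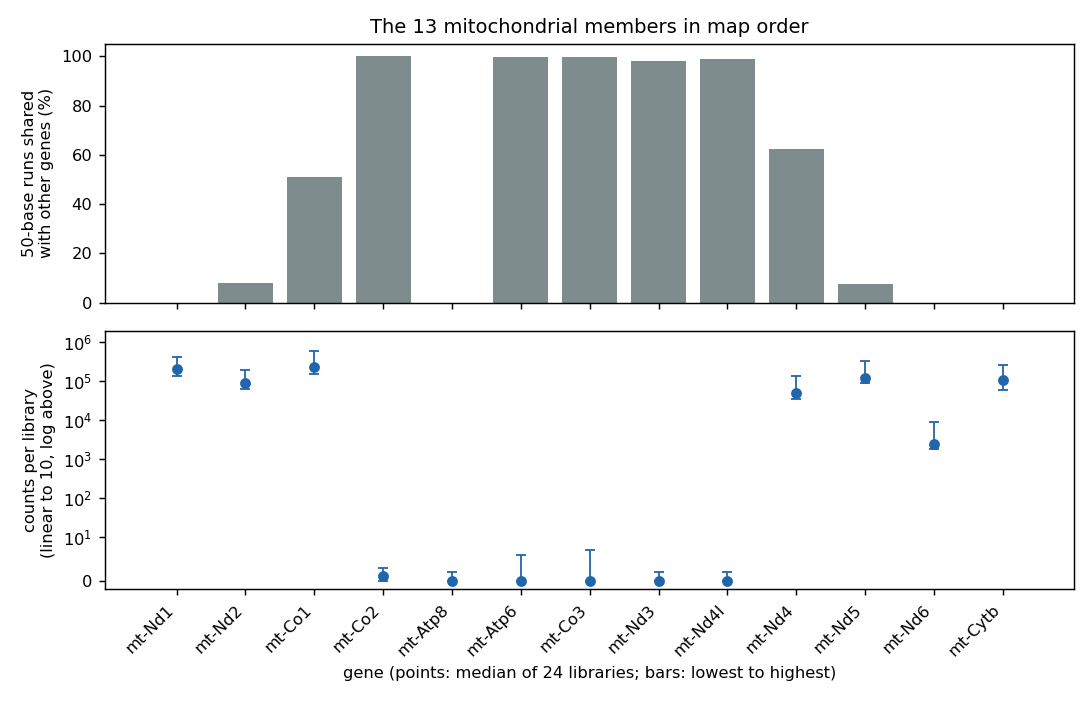
The upper panel gives, for the 13 mitochondrial members in map order, the percentage of 50-base runs that also occur in another annotated transcript, and the lower panel the counts per library (point: median of 24 libraries, bars: lowest to highest, axis linear up to 10 counts and logarithmic above). The 6 genes from mt-Co2 to mt-Nd4l stay between 0 and 7 counts, and 5 of them share 98.0% or more of their runs.

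The libraries numbered 1 stood apart in the mitochondrial members before any comparison was made. They also stood apart beyond these members. The mean squared difference per gene between 2 libraries of a group, relative to sampling noise, was 43.0 to 122.2 for pairs with the library numbered 1. It was 8.31 to 21.1 between the libraries numbered 2 and 3. In each of the 8 groups the library numbered 1 had the largest mitochondrial share of gene counts, 3.03% to 4.57%, against 1.27% to 2.02% in the libraries numbered 2 and 3, which is 1.64 to 2.97 times the mean of the other two. Pairs aligned to more than 1 place were 8.59% to 9.06% of these libraries and 7.69% to 8.45% of the others. The nuclear members did not move with the number in this way, and their summed share in the libraries numbered 1 was 0.974 to 1.11 times that in the others. The labels give the replicate number alone, and what the libraries numbered 1 share was not tested. Fits without these 8 libraries, and fits with the replicate number as a block, are therefore given beside the mitochondrial results.

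**Figure D2:**
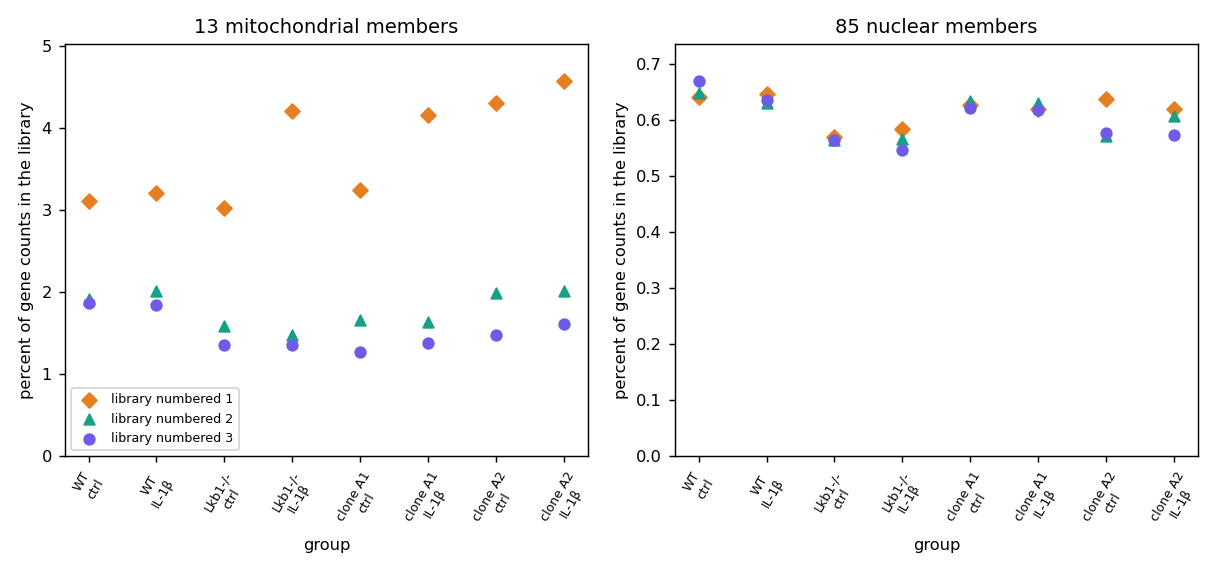
Percent of gene counts on the mitochondrial members (left) and on the nuclear members (right) in each of the 24 libraries, by group, with a symbol for each replicate number. The library numbered 1 is the highest in all 8 groups on the left (3.03% to 4.57%), and on the right the Lkb1-/- libraries lie between 0.547% and 0.584% and the WT libraries between 0.632% and 0.669%.

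Per kilobase of exon, 6 of the 7 tested mitochondrial members were above every nuclear member, and mt-Nd6 was not. mt-Nd1, a core subunit of complex I, had a mean of 5661 CPM per kb over the 24 libraries (range 3388 to 8821), mt-Co1, the catalytic subunit of complex IV, 4524 (2281 to 8606) and mt-Cytb, the only mitochondrial subunit of complex III, 2588 (1257 to 5151). These levels divide by all exon bases, although much of mt-Co1 and mt-Nd4, but none of mt-Nd1 and mt-Cytb, is shared with other transcripts. The part this has in the levels of mt-Co1 and mt-Nd4 was not tested, so mt-Nd1 and mt-Co1 are not ranked here. mt-Nd6, the only member transcribed from the other strand of the mitochondrial genome, was lowest of the 7 tested, with a mean of 170.8 CPM per kb and a range of 84.4 to 387 CPM per kb. It overlaps the end of mt-Nd5 on the opposite strand. Among nuclear members the highest were Cox8a (283.5 CPM per kb), a small complex IV subunit, and Atp5b (189.8) and Atp5a1 (180.6), which form the catalytic head of ATP synthase, and the ranges of the latter pair, 137.1 to 246.5 and 131.1 to 231.6, overlapped. The isoforms of other tissues were near the floor: Cox4i2, Cox6a2, Cox6b2, Cox7b2, Cox8b, Cox8c and Ndufa4l2 had at most 9 counts in any library and were not tested, and Cox7a1, the heart and muscle partner of Cox7a2, reached only 0.732 CPM per kb. Together with a second, longer locus listed as Atp5o that had 0 counts, 8 nuclear and 6 mitochondrial members did not pass the filter, and 77 nuclear and 7 mitochondrial members were tested.

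To ask what loss of LKB1 was accompanied by, untreated Lkb1-/- MEFs were compared with untreated WT MEFs. More OXPHOS genes were lower than higher: 36 of the 84 tested members passed the threshold downward and 16 upward, all of them nuclear. Over all genes tested the order was the other way round, with 25.8% called lower and 30.1% called higher, and the median log2 fold change was -0.16 over the nuclear members against 0.04 over all genes. With unstranded counts the split was 40 lower and 10 higher, and over all genes 5117 lower and 4703 higher. The nuclear members together made up 0.654% ± 0.0142 (SD, n = 3) of gene counts in WT and 0.567% ± 0.00253 in Lkb1-/- MEFs, and the ranges of the 3 libraries, 0.642% to 0.669% and 0.566% to 0.570%, did not overlap. Summed by complex, the Lkb1-/- libraries were below all WT libraries for complex V (0.218% to 0.227% against 0.280% to 0.285%), complex II and complex III. For complex I (0.152% to 0.153% against 0.1465% to 0.157%) and complex IV (0.0993% to 0.104% against 0.0970% to 0.105%) the ranges overlapped. In bulk libraries fewer cells expressing a gene and less of its RNA per cell cannot be told apart.

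Complexes II and III were the most uniform. All 8 tested nuclear subunits of complex III were called lower, and 3 of the 4 subunits of complex II. Uqcrfs1, the Rieske iron-sulfur protein of complex III, was counted at 122.5, 115.7 and 114.5 CPM in the WT libraries and at 65.5, 73.8 and 73.1 in the Lkb1-/- libraries. The groups did not overlap, and the log2 fold change was -0.73 (SE 0.0692, FDR = 1.0e-08). The core proteins Uqcrc2 and Uqcrc1 had log2 fold changes of -0.62 and -0.45, the ubiquinone-binding subunit Uqcrb -0.48, and Uqcrh, the hinge protein, had the smallest change of the complex at -0.21 (SE 0.0627, FDR = 0.0070). In complex II, Sdhc, a membrane anchor that binds ubiquinone, was at 86.4, 95.8 and 99.4 CPM in WT and at 46.0, 53.8 and 51.8 CPM in Lkb1-/- MEFs, with every Lkb1-/- library under every WT library (log2 fold change -0.89, SE 0.0817, FDR = 6.1e-09). Sdhd, the other anchor, had -0.64 and Sdha, the flavoprotein that oxidizes succinate, -0.51, while Sdhb, the iron-sulfur subunit between them, had -0.11 (SE 0.0525, FDR = 0.090) and was not called.

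Complex I held calls in both directions at shares near those of all genes. Of its 36 tested nuclear subunits 12 were called higher (33.3%, against 30.1% of all genes) and 11 lower (30.6%, against 25.8%), with a median log2 fold change of 0.03. When the 7 core subunits that carry the flavin, the iron-sulfur clusters or the ubiquinone site were set apart, a grouping made after the values were seen, 4 were lower and none higher, whereas of the 29 accessory subunits 12 were higher and 7 lower. In the same comparison after IL-1β, 3 core subunits were lower and 1 higher, and 12 accessory subunits were higher and 7 lower. Ndufs7, an iron-sulfur subunit encoded on chromosome 10, was at 43.9, 45.1 and 44.2 CPM in WT and at 27.9, 29.9 and 26.8 CPM in Lkb1-/- MEFs. The groups did not overlap, and the log2 fold change was -0.65 (SE 0.0531, FDR = 9.2e-10). Ndufs1, the largest iron-sulfur subunit, had -0.53, while Ndufv1, the flavin subunit that takes electrons from NADH, had 0.10 (SE 0.0691, FDR = 0.24) and was called higher only with the replicate number as a block (0.10, FDR = 0.035). On the other side stood small accessory subunits. Ndufa7 rose from 20.1, 21.8 and 22.1 CPM in WT to 34.3, 33.5 and 33.8 CPM in Lkb1-/- MEFs (log2 fold change 0.67, SE 0.0666, FDR = 2.2e-08), with no overlap. Ndufv3 had 0.68, but with the widest spread of the called members of its complex (SE 0.191, FDR = 0.0043), and Ndufa6, Ndufa11 and Ndufa1 had 0.56, 0.50 and 0.50.

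**Figure D3:**
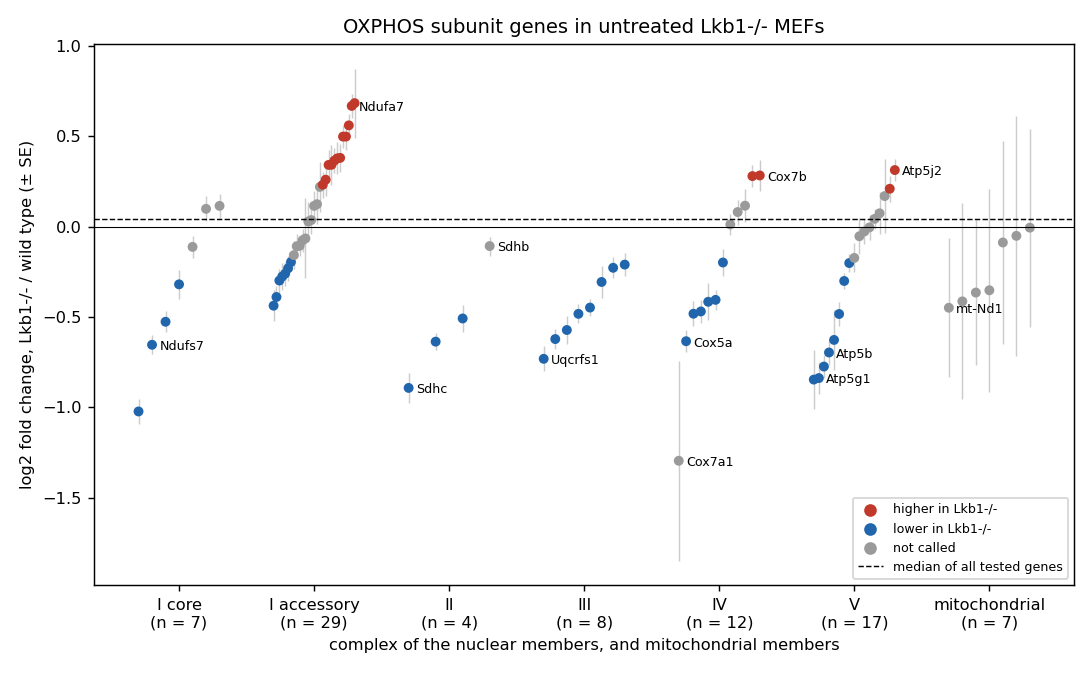
Log2 fold change (± SE) of each of the 84 tested members in untreated Lkb1-/- against WT MEFs, by complex, with complex I split into core and accessory subunits. Points are colored by the call at an FDR under 0.05, and the dashed line is the median of all genes tested (0.04). All 8 points of complex III are called lower, complex I accessory subunits reach both sides, and the mitochondrial members have wide error bars.

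In complex IV 6 of the 12 tested nuclear subunits were called lower and 2 higher. Cox5a, a subunit on the matrix side, was at 108.6, 111.4 and 115.3 CPM in WT and at 72.3, 68.3 and 75.5 CPM in Lkb1-/- MEFs (log2 fold change -0.63, SE 0.0597, FDR = 9.5e-09). Cox6b1 had -0.48, Cox5b -0.47, Cox7c -0.42, Cox7a2 -0.41 and Cox7a2l, a factor that joins complexes III and IV into supercomplexes, -0.20, while Cox6c and Cox7b were higher by 0.28 each. Cox4i1, Cox6a1 and Cox8a, the ubiquitous isoforms of their subunits, were not called, with log2 fold changes of 0.08, 0.01 and 0.12, and of these Cox8a was called with the replicate block (FDR = 0.022). Ndufa4, named for complex I and now counted with complex IV, had 0.12 (SE 0.0828, FDR = 0.25). In the counts given here Ndufa4 stays with the accessory subunits of complex I, by its symbol. Cox7a1 had the lowest value of all members, -1.30, at a mean under 1 CPM, and its FDR of 0.052 missed the threshold, which it passed with the replicate block (FDR = 0.049).

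Of the 17 tested complex V genes 8 were called lower and 2 higher. The catalytic beta subunit Atp5b was at 1003, 1044 and 1008 CPM in WT and at 628.1, 646.9 and 610.2 CPM in Lkb1-/- MEFs (log2 fold change -0.70, SE 0.0685, FDR = 1.9e-08), and the alpha subunit Atp5a1 had -0.48 (SE 0.0674, FDR = 2.8e-06). These genes gave the largest differences in absolute level among the nuclear members. The delta subunit of the stalk, Atp5d, had -0.77. Of the 3 genes that encode the same mature c-ring subunit, Atp5g1 had -0.84 (SE 0.0871, FDR = 4.2e-08), Atp5g3 -0.30 (SE 0.0446, FDR = 6.3e-06) and Atp5g2 0.17 (SE 0.203, FDR = 0.50). By level Atp5g3 was the most abundant of them in both genotypes, at 273.1 ± 3.62 CPM (SD, n = 3) in WT and 221.7 ± 5.90 CPM in Lkb1-/- MEFs. Atp5j2 and Atp5o, of the membrane part and the peripheral stalk, were the members called higher, at 0.31 and 0.21.

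The same comparison after IL-1β, made with other libraries of the same lines, gave 35 members lower and 16 higher, where 27.1% of all genes were called lower and 30.2% higher. Of the 52 members called without treatment and the 51 called with it, 49 were called in the same direction in both (94.2% and 96.1%) and none in opposite directions. Over all genes 8737 were called in the same direction in both, 89.2% of those called without treatment and 86.9% of those called with it, and 6 in opposite directions. Sdhc (-0.98), Atp5g1 (-0.79), Atp5d (-0.74) and Atp5b (-0.72) were among the 5 lowest members above a mean log2 CPM of 3, and Ndufv3 (0.93), Ndufa7 (0.67) and Ndufa6 (0.66) the highest. With upper quartile normalization, which moved the median of all genes in this comparison by 0.10, the split was 27 lower and 22 higher, and over all genes 22.7% lower and 35.7% higher.

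**Figure D4:**
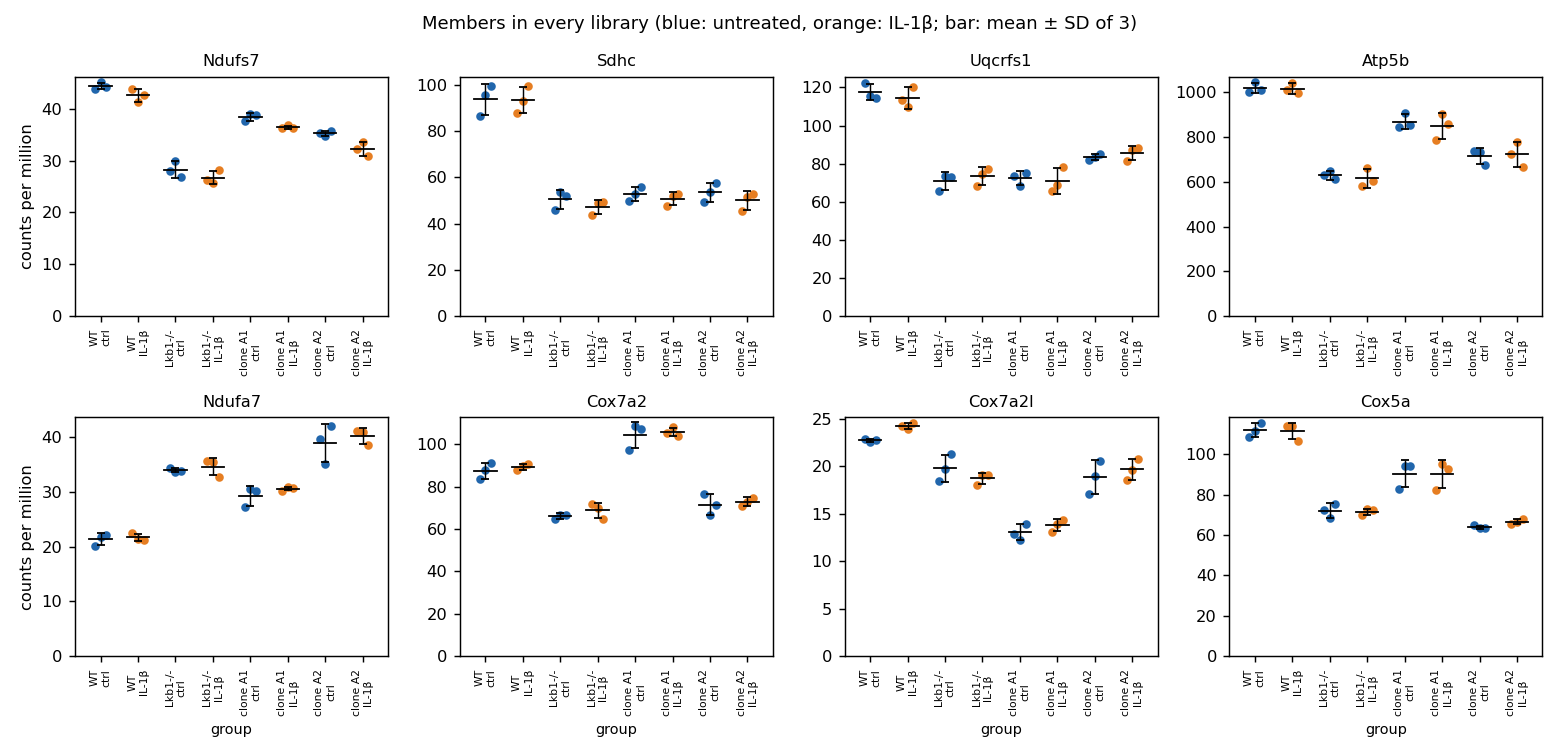
CPM of 8 members in every library (blue: untreated, orange: IL-1β), with the mean and SD of the 3 libraries of a group. Sdhc, Uqcrfs1 and Ndufs7 are lower in Lkb1-/- MEFs and both clones than in WT, Ndufa7 is higher, and for Cox7a2, Cox7a2l and Cox5a the clones A1 and A2 stand apart from each other.

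The mitochondrial members were lower in untreated Lkb1-/- MEFs by their fitted values, but their calls depended on how the libraries numbered 1 were treated. The 7 tested members had log2 fold changes from -0.45 to -0.01 with a median of -0.35, and none was called (lowest FDR 0.34, and 0 members with an unadjusted p under 0.05). With the replicate number as a block, 4 were called lower, mt-Cytb at -0.48 (FDR = 0.00145), mt-Nd1 at -0.47 (FDR = 0.00057), mt-Co1 at -0.43 (FDR = 0.010) and mt-Nd2 at -0.39 (FDR = 0.0018), and without the 8 libraries numbered 1, a choice made after seeing the data, 5 were. Of all genes these fits called 30% and 27.3% lower, against 25.8% in the fit without either change. For mt-Nd1, the member with the lowest FDR under the block, the WT libraries numbered 1, 2 and 3 had 7814, 5498 and 5264 CPM and the Lkb1-/- libraries 6061, 4034 and 3515 CPM. Each Lkb1-/- library was under the WT library of the same number, while the Lkb1-/- library numbered 1 was above the WT libraries numbered 2 and 3. In the libraries numbered 2 and 3 all 7 tested members were lower in Lkb1-/- than in WT MEFs, but between the libraries numbered 1 only 4 were, and mt-Nd4 (2059 against 1925 CPM), mt-Nd5 (5235 against 4672 CPM) and mt-Nd6 (137.5 against 122.6 CPM) were higher. After IL-1β the median was -0.19 with no call, 4 members lower under the block and 5 without the libraries numbered 1, where the median was -0.52 and the fits called 31.5% and 28.6% of all genes lower. The libraries numbered 1 went the other way after IL-1β, with all 7 members higher in Lkb1-/- MEFs (39270 against 33520 CPM in sum), whereas all 7 were lower in the libraries numbered 2 (14910 against 21850 CPM) and 3 (13660 against 19560 CPM).

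The direction of a nuclear member went with the chromosome it lies on. On chromosome 10, which holds Stk11, the median log2 difference of the other genes between untreated Lkb1-/- and WT MEFs was -0.44, and all 5 tested members there were called lower: Atp5d, Atp5b, Ndufs7, Uqcr11 (-0.57) and Ndufa12 (-0.44). Chromosome 15 stood at the other end with a median of 0.40, and 3 of its 4 members were called higher. All 3 members on chromosome X, where the median was 0.22, were called higher, and all 5 on chromosome 9, where it was -0.12, lower. Across the 77 nuclear members on 19 chromosomes, the fold change of a member and the median of the other genes of its chromosome had a Pearson r of 0.77 and a Spearman rho of 0.81, as a description across genes that share the same libraries and are not independent replicates. Of the 52 called members 45 had the sign of their chromosome's median, as did 66.1% of the other called genes.

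Members also lay below the other genes of their own chromosome, with a median distance of -0.18, and 22 called members were lower than their chromosome's median by more than 0.3 on the log2 scale, while 2 were higher by more than that, of 77 tested. Of the other nuclear genes 19.8% were called and lower by more than this distance and 23.9% called and higher. Without chromosome 10, 31 members were called lower and 16 higher of 72, where 25.8% and 30.1% of all genes, chromosome 10 included, were called. The median distance was -0.45 for complex II, -0.31 for complex III, -0.26 for complex V, -0.23 for complex IV and -0.03 for complex I. Sdhc on chromosome 1 lay at a distance of -0.60 from that chromosome's median of -0.29, and Uqcrfs1 on chromosome 13 and Atp5g1 on chromosome 11 at -0.61 and -0.71 from theirs. The copy number of the chromosomes was not measured, and its part in these results was not tested.

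**Figure D5:**
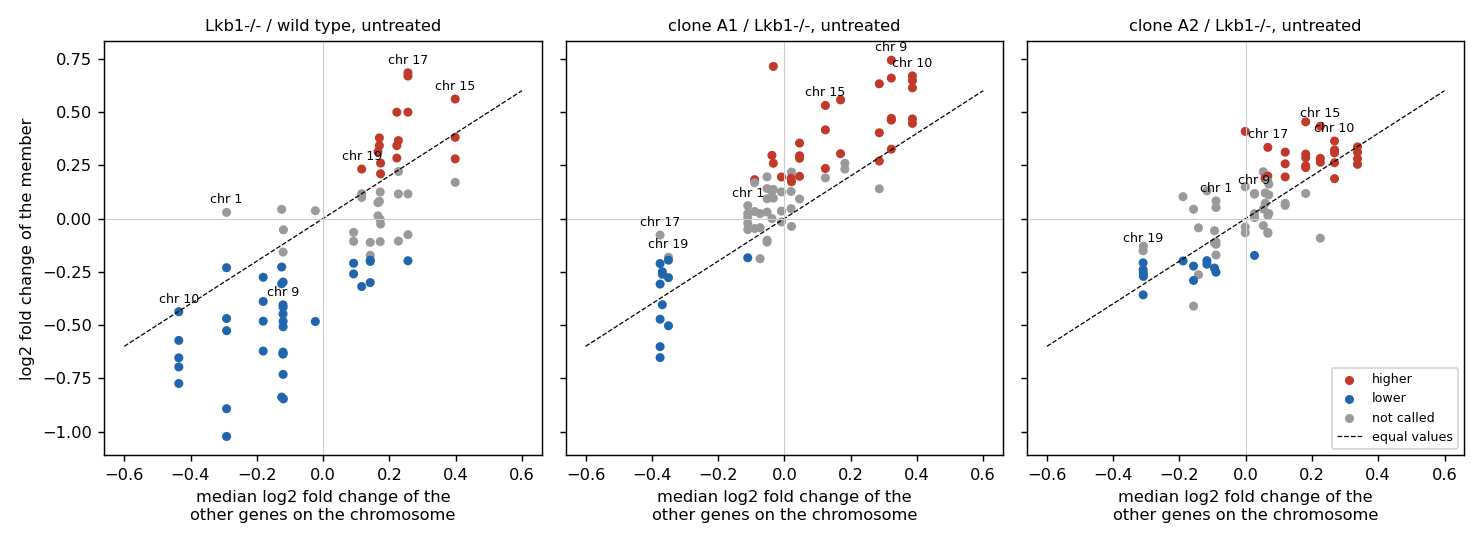
Log2 fold change of each tested nuclear member except Cox7a1 against the median log2 fold change of the other genes on its chromosome, for Lkb1-/- against WT (left), clone A1 against Lkb1-/- (middle) and clone A2 against Lkb1-/- (right), all untreated, with the line of equal values dashed. On the left most points lie under the line, with chromosome 10 at -0.44 and chromosome 15 at 0.40, and in the middle and right panels points lie along the line.

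To ask what loss of CRTC2 adds, each clone was compared with Lkb1-/- MEFs, and since both comparisons use the same Lkb1-/- libraries they are given side by side. In untreated clone A1, 29 members were called higher and 12 lower, where 18.9% of all genes were called higher and 16.4% lower, and in untreated clone A2, 25 were called higher and 13 lower, where the shares were 17.1% and 15.1%. In clone A2 the split was 27 higher and 8 lower with unstranded counts, where 16% of all genes were called higher and 11.9% lower, and 16 and 6 when only the groups compared were fitted, where the shares were 14.8% and 13.7%. The median over the nuclear members was 0.13 in clone A1 and 0.07 in clone A2, against 0.02 over all genes in both. The nuclear members made up 0.628% ± 0.00621 (SD, n = 3) of gene counts in clone A1, between the values of Lkb1-/- and WT MEFs and overlapping neither, and 0.596% ± 0.0367 in clone A2, where the library numbered 1 had 0.638% and the others 0.572% and 0.578%. After IL-1β the counts were 26 higher and 12 lower in clone A1, with 19.4% and 17.3% of all genes, and 25 higher and 10 lower in clone A2, with 17.1% and 15.8%, and the latter split was 25 and 4 with unstranded counts, where the shares were 16% and 12.3%.

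In clone A1 complex V moved in 1 direction, with 10 of 17 members called higher and none lower. Of these, Atp5d and Atp5b lie on chromosome 10, where the other genes had a median of 0.39, and Atp5l on chromosome 9 (0.32). Atp5g1 and Atp5h lie on chromosome 11 (0.29), Atp5a1 on chromosome 18 (0.17) and Atp5g2 on chromosome 15 (0.12). Atp5c1 and Atp5e lie on chromosome 2 (0.05) and Atp5j on chromosome 16 (0.02). Atp5g1 was at 61.2, 59.0 and 61.2 CPM in clone A1 against 40.9, 39.6 and 36.5 CPM in Lkb1-/- MEFs (log2 fold change 0.63, SE 0.0870, FDR = 8.4e-06), and all 3 libraries of the clone were above those of the Lkb1-/- MEFs and below those of WT. Atp5l had the largest value, 0.74, of which 1 library held a large part: its level was 47.2 CPM in the library of clone A1 numbered 1 and 27.6 and 27.5 CPM in the others, and without that library the log2 fold change was 0.44 (SE 0.129, FDR = 0.014). The same library set the calls of Ndufs5 (0.71, FDR = 0.014) and Atp5g2 (0.53, FDR = 0.045), which without it were at 0.32 (FDR = 0.22) and 0.11 (FDR = 0.62). Uqcr11 (0.67), Cox7a2 (0.66) and Ndufa12 (0.65) completed the highest members, and Ndufv3 (-0.65), Cox7a2l (-0.60), Cox8a (-0.50), Ndufv2 (-0.47) and Ndufa13 (-0.40) were the lowest. Of these 5 lower members, Ndufv3, Cox7a2l and Ndufv2 lie on chromosome 17, whose other genes had a median of -0.38, Cox8a on chromosome 19 (-0.35) and Ndufa13 on chromosome 8 (-0.37).

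In clone A2 the changes were smaller. Ndufs6, an accessory subunit next to the iron-sulfur path of complex I, had 0.45 (SE 0.0785, FDR = 0.00014), Cox6c 0.43 (SE 0.0614, FDR = 1.6e-05), Ndufa12 0.36, Atp5g1 0.34 and Ndufb10 0.33, and on the other side stood Cox8a (-0.36), Ndufb6 (-0.29), Cox4i1 (-0.27), Ndufb7 (-0.26) and Ndufs1 (-0.25). The 5 tested members of chromosome 10 were called higher in both clones, from 0.45 to 0.67 in clone A1 and from 0.19 to 0.36 in clone A2, where the medians of that chromosome's other genes were 0.39 and 0.27. Some of the lowest members of the Lkb1-/- MEFs differed little from them in the clones. Sdhc had log2 fold changes of 0.06 (SE 0.0816) in clone A1 and 0.08 (SE 0.0815) in clone A2, and Uqcrc2 had -0.02 and 0.07 (SE 0.0547 in both), none of them called. The Pearson r between a member's fold change and its chromosome's median was 0.86 in clone A1 and 0.69 in clone A2, across the same 77 genes. The median distance from the chromosome was 0.12 in clone A1 and 0.04 in clone A2.

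The clones differed from each other beyond the spread between libraries. In untreated clone A2 against clone A1, 22 members were called lower and 11 higher, where 16.7% of all genes were called lower and 15.8% higher, and in complex V 9 were lower and none higher. Cox7a2 was at 97.4, 108.5 and 107.1 CPM in clone A1 and at 76.6, 66.6 and 71.5 CPM in clone A2 (log2 fold change -0.54, SE 0.0568, FDR = 3.5e-07). Its relative Cox7a2l went the other way, at 12.90, 12.27 and 13.95 CPM in clone A1 and 17.06, 18.98 and 20.54 CPM in clone A2 (0.53, SE 0.0754, FDR = 1.4e-05). All 6 members on chromosome 17, where the other genes had a median of 0.46, were called higher in clone A2, the others being Ndufv3 (0.59), Ndufv2 (0.49), Ndufa11 (0.48), Ndufb10 (0.41) and Ndufa7 (0.41). On chromosome 9 the median was -0.29, and Cox7a2, Cox5a (-0.50) and Atp5l (-0.72, or -0.41 without the clone A1 library numbered 1) are encoded there. A difference between 2 single-cell clones and an effect of the genotype they share cannot be told apart within 1 clone.

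Against WT, untreated clone A1 had 24 members higher and 30 lower, where 30.3% of all genes were called higher and 25.1% lower, and clone A2 had 19 higher and 34 lower, where the shares were 32.7% and 27.9%. With upper quartile normalization the splits were 30 higher and 18 lower in clone A1, where the order turned and 35.1% of all genes were called higher and 21.5% lower, and 24 and 28 in clone A2, where the shares were 36.6% and 24.6%. With unstranded counts clone A1 had 15 higher and 31 lower, where the shares were 25.4% and 25.1%. Sdhc (-0.83 in clone A1 and -0.81 in clone A2) and Ndufs1 (-0.71 and -0.78) were among the 5 lowest in both clones, and Ndufa6 (0.80 and 0.83) and Cox6c (0.70 and 0.71), both on chromosome 15, among the 5 highest. Ndufa7 was the highest in clone A2 (0.87) and had 0.46 in clone A1. In complex II 3 of 4 members were lower in each clone, and in complex III 3 of 8 lower and 1 higher in clone A1 and 6 of 8 lower in clone A2.

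No mitochondrial member was called in either clone against Lkb1-/- MEFs, in either clone against WT or between the clones, and none had an unadjusted p under 0.05 in these comparisons. With the replicate number as a block, mt-Cytb was called higher in clone A1 (0.38, FDR = 0.012) and in clone A2 (0.53, FDR = 0.0011) against untreated Lkb1-/- MEFs, and mt-Nd2 in clone A2 (0.39, FDR = 0.0030). In the same fit mt-Nd1, mt-Co1 and mt-Nd2 were called lower in clone A1 than in WT, at -0.50, -0.47 and -0.26, and mt-Nd1 (0.28) and mt-Nd2 (0.26) higher in clone A2 than in clone A1. Of all genes that fit called 25.6% higher in clone A1 and 24.5% in clone A2 against Lkb1-/- MEFs, 29.5% lower in clone A1 than in WT and 23.1% higher in clone A2 than in clone A1. Without the 8 libraries numbered 1, no mitochondrial member was called in either untreated clone against Lkb1-/- MEFs, while against WT 3 were called lower in clone A1 (lowest FDR 0.0026) and 1 in clone A2 (FDR = 0.038), where 26.4% and 29.1% of all genes were called lower. After IL-1β the block gave 1 member higher in clone A1 and 2 in clone A2 (25.8% and 24.4% of all genes), and the fit without those libraries gave 2 higher in clone A2 and none in clone A1 (20.3% and 21.5% of all genes).

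IL-1β for 6 h changed no OXPHOS gene past the threshold in any genotype in the main fit, which has no term for the replicate number. In WT MEFs 0 members were called where 1.53% of all genes rose and 0.731% fell, in Lkb1-/- MEFs 0 where 2.65% rose and 2.09% fell, in clone A1 0 where 1.2% rose and 0.788% fell, and in clone A2 0 where 2.81% rose and 2.86% fell. At an unadjusted p under 0.05 there were 0, 2, 1 and 4 of the 84 members, where 2001, 2571, 1881 and 3076 of the 17522 genes had one, and DESeq2 called 0, 0, 0 and 2, where it called 3.84%, 6.31%, 3.78% and 9.06% of all genes. With the replicate number as a block 1 member was called in WT (Ndufv3, -0.26), 1 in Lkb1-/- MEFs (Sdha, -0.16), 1 in clone A1 (Ndufs5, -0.65, or -0.27 in the fit without the clone A1 library numbered 1 and without the block) and 2 in clone A2 (Uqcrq, 0.17, and Atp5h, 0.16), where that fit called 9.3%, 14.8%, 9.61% and 17.9% of all genes. The median over the nuclear members was between -0.02 and 0.03 in the 4 genotypes. Sdhc gives the scale, with 88.0, 93.0 and 99.3 CPM in IL-1β-treated WT MEFs against the untreated values above, a log2 fold change of -0.01 (SE 0.0807, FDR = 1), and its groups overlapped.

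The responses to IL-1β did not differ detectably between genotypes in these genes. For Lkb1-/- against WT MEFs 0 members were called where 0.137% of all genes were called higher and 0.108% lower. For clone A1 against Lkb1-/- MEFs 0 were called where 0% were higher and 0.0285% lower, and for clone A2 against Lkb1-/- MEFs 0 where 0% were higher and 0% lower. At an unadjusted p under 0.05 there were 0, 2 and 0 members, where 5.62%, 2.47% and 2.21% of all genes had one, and DESeq2 called 0 in each, where it called 0.74%, 0.0727% and 0.0744% of all genes. The mitochondrial members had median log2 fold changes with IL-1β of 0.04 in WT, 0.23 in Lkb1-/- MEFs, 0.21 in clone A1 and 0.07 in clone A2, with no call, and without the libraries numbered 1 these were 0.04, -0.06, 0.03 and 0.04. With the replicate number as a block they were 0.04, 0.13, 0.15 and 0.06, with no call. In Lkb1-/- MEFs the median was -0.51 without the IL-1β-treated library numbered 1 alone and 0.74 without the untreated library numbered 1 alone, fits that each keep 1 of the 2 libraries with that number.

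Promoters were searched because CRTC2 acts through CREB, which binds the cAMP response element (CRE), and because NRF1, the ETS factor GABP and YY1 are known regulators of OXPHOS genes. RefSeq windows from 250 bases before to 50 bases after the start were given for 66 of the 98 members (GRCm38.p6). The full CRE, TGACGTCA, was present in 4 of the 66 (6.1%) and in 2.6% of 16513 genes with a window, the NRF1 core TGCGCA in 17 (25.8%) and 11.3%, the ETS core CCGGAAG in 16 (24.2%) and 13.4%, and the YY1 motif AAGATGGC in 9 (13.6%) and 3.6%, on either strand, and none of these motifs lies within another. A match says that the letters are there and not that a factor binds. The 120 bases before the start are shown for the 3 members that hold a CRE in them, the element bound by CREB, and for Sdhd as an example of the NRF1 and ETS cores, with motifs in capitals.
Ndufa10 (chr1:92473759-92473878, minus strand): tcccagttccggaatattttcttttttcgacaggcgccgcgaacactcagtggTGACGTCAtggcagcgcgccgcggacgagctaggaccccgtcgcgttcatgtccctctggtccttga
Ndufb2 (chr6:39592445-39592564, plus strand): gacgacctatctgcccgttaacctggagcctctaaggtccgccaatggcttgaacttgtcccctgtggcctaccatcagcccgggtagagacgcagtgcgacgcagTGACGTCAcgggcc
Uqcrfs1 (chr13:30545317-30545436, minus strand): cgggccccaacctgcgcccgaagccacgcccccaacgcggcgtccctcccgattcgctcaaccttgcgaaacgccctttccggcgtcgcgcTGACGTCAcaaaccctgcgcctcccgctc
Sdhd (chr9:50603850-50603969, minus strand): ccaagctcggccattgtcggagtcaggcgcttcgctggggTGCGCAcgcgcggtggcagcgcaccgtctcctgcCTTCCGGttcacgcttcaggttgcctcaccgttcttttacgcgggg
The CRE begins 67 bases before the start in Ndufa10, 14 in Ndufb2 and 29 in Uqcrfs1, and 158 before it in Ndufa11, outside the stretch shown.

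The 4 members with a CRE had no common direction. Uqcrfs1 was lower in Lkb1-/- MEFs, as given above, and had 0.03 in clone A1 and 0.24 (called higher) in clone A2 against them. Ndufa10, an accessory subunit of complex I, was lower in Lkb1-/- MEFs (-0.23, FDR = 0.0075) and had 0.02 and -0.12 in the clones, without a call except in clone A2 under the replicate block (FDR = 0.029). Ndufb2 was not called in Lkb1-/- MEFs (0.22) or clone A1 (0.17) and was called higher in clone A2 (0.41), and Ndufa11 was higher in Lkb1-/- MEFs, lower in clone A1 (-0.31) and not called in clone A2 (0.17, or 0.18 with FDR = 0.026 under the block).

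The genes around the subunits were described from lists of assembly factors, carriers, citrate cycle enzymes, mitochondrial ribosomal proteins, biogenesis regulators and factors that maintain mitochondrial DNA and its transcripts. In untreated Lkb1-/- against WT MEFs, where 25.8% of all genes were called lower and 30.1% higher, 9 of 13 citrate cycle enzymes (69.2%) were called lower and 1 higher, 44 of 77 mitochondrial ribosomal proteins (57.1%) lower and 11 higher, 16 of 47 assembly factors (34%) lower and 10 higher (21.3%), 8 of 17 factors of mitochondrial DNA and transcript upkeep (47.1%) lower and none higher, 5 of 12 biogenesis regulators (41.7%) lower and 1 higher, and 2 of 6 carriers and subunits outside the symbol rule lower and 2 higher (33.3% each). Citrate synthase, Cs, the entry enzyme of the cycle, was at 579.1, 582.9 and 577.7 CPM in WT and at 286.4, 285.3 and 282.0 CPM in Lkb1-/- MEFs (log2 fold change -1.03, SE 0.0664, FDR = 2.4e-11). Its gene lies on chromosome 10, as do those of 5 tested subunits. Fumarase, Fh1, had -1.26 and the isocitrate dehydrogenase subunit Idh3a -1.08. The assembly factors reached further in both directions than the subunits, with Ndufaf3 at -1.36 and Cox20 at -1.04 against Cox14 at 1.14 and Cox16 at 1.12.

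The PGC-1 coactivators, which induce OXPHOS genes in many tissues, moved apart. Ppargc1b was at 13.8, 12.3 and 11.8 CPM in WT and at 2.20, 1.76 and 1.21 CPM in Lkb1-/- MEFs (log2 fold change -2.87, SE 0.189, FDR = 3.3e-11). Ppargc1a was at 0, 0 and 0.0522 CPM in WT and at 3.40, 2.16 and 2.93 CPM in Lkb1-/- MEFs (FDR = 6.9e-10), and no fold is given because the WT libraries were at or under the floor of 3 counts. By these CPM values Ppargc1b was the more abundant of the pair in WT, and in Lkb1-/- MEFs Ppargc1a was above Ppargc1b in each library of the same number. Tfam, which packages and transcribes mitochondrial DNA, had -0.66 and its partner Tfb2m -1.10.

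Against untreated Lkb1-/- MEFs, where clone A1 had 18.9% of all genes higher and 16.4% lower, 8 of 13 citrate cycle enzymes (61.5%) were higher and none lower, 29 of 77 ribosomal proteins (37.7%) higher and 15 (19.5%) lower, 16 of 47 assembly factors (34%) higher and 6 (12.8%) lower, 6 of 17 upkeep factors (35.3%) higher and 1 (5.88%) lower, 3 of 12 regulators higher and 2 (16.7%) lower, and 2 of 6 carriers (33.3%) higher and 1 (16.7%) lower. In clone A2, with 17.1% of all genes higher and 15.1% lower, 6 of 13 citrate cycle enzymes (46.2%) were higher and 2 (15.4%) lower, 26 of 77 ribosomal proteins (33.8%) higher and 10 lower, 11 of 47 assembly factors (23.4%) higher and 2 (4.26%) lower, 5 of 17 upkeep factors (29.4%) higher and 1 (5.88%) lower, 2 of 12 regulators (16.7%) higher and 5 (41.7%) lower, and 1 of 6 carriers higher and 1 lower (16.7% each). Ppargc1b rose by 1.58 in clone A1 (FDR = 1.4e-06) and by 0.89 in clone A2 (FDR = 0.0011), and its levels of 4.27 to 6.27 CPM and 2.62 to 3.59 CPM stayed below those of WT. Ppargc1a was lower in clone A2 (-1.06, FDR = 0.0090) and had -0.25 (FDR = 0.55) in clone A1. Tfam rose in both, by 0.38 and 0.32, and Cs by 0.50 and 0.28. Cs lies on chromosome 10, where the medians of the genes outside the members were 0.39 and 0.27 in the clones. Tfam was not set against its chromosome.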

How the data were processed

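RNA was sequenced from 24 libraries of 3T3 MEFs in 8 groups of 3, and samples were grouped by their titles. The authors trimmed 50 bp paired-end reads with Trim Galore 0.6.0, aligned them with STAR 2.7.8a to the mouse genome GRCm38.p6 and deposited STAR's gene counts for each library, which are raw counts per gene for unstranded and stranded reads. The methods name a KAPA kit with rRNA depletion and the labels a SMARTER kit. The column of the second strand setting, which held 95.5% or more of the stranded gene counts, was used, and lines naming no gene (26.7% to 34.4%) were left out. Symbols and positions came from GENCODE M21.

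Genes were filtered with edgeR's filterByExpr (minimum count 10, minimum total 15), scaled by TMM (0.922 to 1.09) and fitted over all 24 libraries with 1 term per group by the quasi-likelihood test (R 4.3.3, edgeR 4.0.16, limma 3.58.1), with Benjamini-Hochberg adjustment over 17522 genes. The script was tested on simulated data with known changes. An exact permutation test of 3 against 3 libraries cannot go below p = 0.1 and was not used. Alternatives were other scalings (RLE, upper quartile, without mitochondrial genes), other filters, unstranded counts, DESeq2 1.42.0, edgeR's newer dispersion method, the groups compared alone, a replicate block and leaving out libraries. Same-numbered libraries of different groups deviated together: all 84 correlations of their deviations were over 0.1 (0.138 to 0.763), and 24 of 24 libraries correlated best with their own number, so the numbers were taken to pair the libraries. The main fit has no term for the number, and the fit with it as a block is given as an alternative. No pair of replicates agreed within sampling noise.

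Named were the isoform pairs, core catalytic subunits, members on chromosome 10, and in each comparison up to 5 called members per direction with the largest change above a mean log2 CPM of 3, and other members were named after their values were seen. A member that this rule names is not reported here by name and stays in the counts. The members and lists were chosen with earlier results of these data known. Shared runs were counted over GENCODE M21 transcripts, and promoters were RefSeq windows (GRCm38.p6).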

Additional observations from a re-analysis of the deposited data

Results flagged for a closer look

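In untreated cells the clones lay on opposite sides of Lkb1-/- MEFs for 3 members, both called, and differed from each other. Cox5a was higher in clone A1 (0.33) and lower in clone A2 (-0.17), and clone A2 against clone A1 gave a log2 fold change of -0.4988. Atp5a1 had 0.30 and -0.20, and the difference was -0.5031. Ndufa7 had -0.21 and 0.20, and the difference was 0.4108. After IL-1β Ndufa7 was again called on both sides (-0.18 and 0.22), while Cox5a (-0.10) and Atp5a1 (-0.16) were not called in clone A2. All 3 untreated differences passed an FDR of 0.05 in edgeR's quasi-likelihood test. Cox5a lies on chromosome 9, Ndufa7 on chromosome 17 and Atp5a1 on chromosome 18, whose other genes differed between the clones by medians of -0.29, 0.46 and -0.37.

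On the strand opposite to mt-Nd6, which the comparisons did not use, the median was 27013.5 counts over the 24 libraries (20293 to 80606), against 2558.5 on the gene's own strand.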

How the results depend on the processing

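No called value of the members recomputed changed sign under the alternatives run, but the split of calls in untreated clone A1 against WT turned from 24 higher and 30 lower to 30 and 18 with upper quartile normalization, and the mitochondrial median with IL-1β in Lkb1-/- MEFs went from 0.23 to -0.06 without the libraries numbered 1 to -0.51 without the IL-1β-treated Lkb1-/- library numbered 1 and to 0.74 without the untreated one, and was 0.13 with the replicate block. The number of members called moved by more than 1.5 times in these cases: from 38 to 22 for untreated clone A2 against Lkb1-/- MEFs and from 35 to 20 after IL-1β when only the groups compared were fitted, a fit with fewer libraries, where the share of all genes called went from 32.3% to 28.5% and from 32.8% to 27.3%. For IL-1β the count moved from 0 to 1 in WT, 1 in Lkb1-/- MEFs, 1 in clone A1 and 2 in clone A2 with the replicate block, to 3 in Lkb1-/- MEFs and 3 in clone A1 without a filter on low counts (3.88% and 2.47% of all genes), to 2 in clone A2 with DESeq2, and to 1 in clone A2 without the 8 libraries numbered 1; leaving out libraries gave 0 to 1 in clone A2 (3.79% to 14.6% of all genes). The cause was not tested. The block otherwise changed the count of members called by less than 1.5 times, and its mitochondrial calls are given with the results. Leaving out libraries gave 49 to 57 members for Lkb1-/- against WT MEFs untreated (50.7% to 59.1% of all genes) and 47 to 56 after IL-1β (51.8% to 60.2%), 34 to 38 (29.1% to 40.2%) and 30 to 42 (29.9% to 41.7%) for clone A1 against Lkb1-/- MEFs, and 27 to 34 (25.7% to 39.2%) and 26 to 43 (27.1% to 38.7%) for clone A2. Of single members' values, 6812 kept direction and call, 194 lost the call and 69 gained it. Mitochondrial members had SEs of 0.38 to 0.66 in Lkb1-/- against WT MEFs, against 0.0446 for Atp5g3.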
